A study of Mus musculus with 16 samples.

Results

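Dual-alpha cells are T cells in which a single beta chain is found together with 2 different productive alpha chains of the T cell receptor (TCR). They were taken here as the cell barcodes with exactly 1 TRB contig and exactly 2 TRA contigs that differ in the nucleotides of the CDR3, the region at the V-J join, and compared with barcodes with 1 TRB and 1 TRA contig (single-alpha cells). A contig is an assembled receptor transcript, and its depth is the number of unique molecular identifiers (UMIs), each marking 1 captured RNA molecule. There were 2313 dual-alpha cells and 35788 single-alpha cells among 74368 cells with a TCR contig. A further 7 cells had 2 TRA contigs with the same CDR3 and were left out.

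The cells were CD44high CD4+ T cells, a fraction rich in cells that have met antigen, sorted from the spleen of mice at day 18. All mice had received an NK1.1-depleting antibody (50 µg, days -2 and 5) and a graft of Vk12653 myeloma cells (labelled as a Vk*Myc tumor) at day 0, and then an agonistic antibody to the costimulatory receptor 4-1BB (CD137) or control IgG (20 µg, days 10, 13 and 16). Wild-type (WT) mice carried Eomes-IRES-GFP, a reporter at the gene of the transcription factor Eomes. Knockout (KO) mice were Eomesfl/fl-CD4Cre in experiment 1 and Eomesfl/fl-ERT2CD4Cre in experiment 2, where tamoxifen was given to all mice, WT included. The type of KO, tamoxifen and the experiment, which the labels mark as a batch, therefore cannot be told apart. Each of the 4 groups, 2 genotypes by 2 treatments, had 2 TCR libraries, 1 from each experiment. How many mice stand behind a library is not given in the sources used here, so p-values measure the spread between these libraries only. Expression of Cd4, Cd44 and Eomes was not analysed here, so neither the sort nor the KO was checked.

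The TCR alpha locus is rearranged on both chromosomes of a developing thymocyte, and the second allele is not strictly silenced once the first has made a productive chain. Joining starts with V segments (TRAV) and J segments (TRAJ) that lie near each other and moves outward in further rounds, to TRAV segments farther upstream and TRAJ segments farther downstream, until a receptor is positively selected. A mature T cell can thus carry a pair of productive alpha chains beside its beta chain, and the 2 alpha chains tell how far each allele had moved. On the GRCm38 build the mouse locus lies on chromosome 14, with TRAV1 (start 52427967) at the upstream end, TRAV21-DV12 (start 53876016) the last TRAV label seen here, and the TRAJ segments from TRAJ58 (start 54157280) down to TRAJ2 (start 54217836). A high TRAJ number therefore means a segment near the TRAV segments, and a low number a segment far from them.

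The largest dual-alpha receptor of a library shows what a dual-alpha clone looks like. In the library of KO anti-4-1BB, experiment 2, it was a TRBV13-3/TRBJ1-2 beta chain with TRAV7D-2/TRAJ2 and TRAV13-1/TRAJ17. In WT IgG, experiment 2, both alpha chains of the largest receptor used TRAJ30, and in KO IgG, experiment 2, they used the neighbours TRAJ42 and TRAJ43. The CDR3 nucleotides of these 3 receptors are given 5′ to 3′. Capitals mark the bases of the junction, that is, those outside the stretches that at least 10% of the distinct CDR3s with the same V label (from the 5′ end) or the same J label (from the 3′ end) share.
KO anti-4-1BB TRB, TRBV13-3/TRBJ1-2: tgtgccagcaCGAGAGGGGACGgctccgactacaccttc
KO anti-4-1BB stronger alpha, TRAV7D-2/TRAJ2: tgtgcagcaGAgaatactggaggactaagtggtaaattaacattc
KO anti-4-1BB weaker alpha, TRAV13-1/TRAJ17: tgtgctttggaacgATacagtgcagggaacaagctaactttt
WT IgG TRB, TRBV20/TRBJ2-7: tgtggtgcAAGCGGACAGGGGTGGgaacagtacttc
WT IgG stronger alpha, TRAV3N-3/TRAJ30: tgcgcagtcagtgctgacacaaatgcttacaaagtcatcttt
WT IgG weaker alpha, TRAV9-2/TRAJ30: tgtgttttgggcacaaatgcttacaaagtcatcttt
KO IgG TRB, TRBV19/TRBJ2-1: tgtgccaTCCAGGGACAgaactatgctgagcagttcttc
KO IgG stronger alpha, TRAV7-5/TRAJ42: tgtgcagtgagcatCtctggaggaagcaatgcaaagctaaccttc
KO IgG weaker alpha, TRAV4-4-DV10/TRAJ43: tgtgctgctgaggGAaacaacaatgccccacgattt

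The 3 beta chains had 12, 16 and 10 junction bases, while the alpha chains had 2 and 2, 0 and 0, and 1 and 2. These are bases outside the shared stretches, not counts of added bases, since germline segments were not compared. Alpha junctions this short can arise more than once, so a shared alpha CDR3 does not by itself tie 2 cells to 1 clone, and each receptor below is read with its beta chain. The KO anti-4-1BB receptor was seen whole in 11 cells, with the TRAV7D-2/TRAJ2 chain alone in 9 cells and the TRAV13-1/TRAJ17 chain alone in 15 cells. Another 2 cells with that beta chain had another alpha chain and 5 had none. The WT IgG receptor was seen whole in 6 cells, with TRAV3N-3/TRAJ30 alone in 27 and TRAV9-2/TRAJ30 alone in 6 of the 45 cells of that beta chain. The KO IgG receptor was seen whole in 5 of 6 cells. In the other 5 libraries the largest receptor was seen whole in 2 to 6 cells.

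Dual-alpha cells made up 6.07% of the 38101 cells with 1 TRB and 1 or 2 different TRA chains, and the library mean was 5.77% ± 1.60 (SD, n = 8). In experiment 1 the share was 5.15% in WT IgG mice and 8.96% in WT anti-4-1BB mice, with 6.09% in KO IgG and 6.67% in KO anti-4-1BB. In experiment 2 it was 5.16% in WT IgG mice and 4.33% in WT anti-4-1BB mice, with 5.98% in KO IgG and 3.79% in KO anti-4-1BB. The experiment 1 library of WT with anti-4-1BB stood above all others, with a 95% interval (exact Clopper-Pearson, counting error only) of 8.38% to 9.58%, and the experiment 2 library of KO with anti-4-1BB was lowest, with 3.27% to 4.36%. Counted per receptor, with each set of 1 TRB and its TRA chains taken once per library, the shares ran from 4.60% to 9.56% and the same 2 libraries were lowest and highest.

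**Figure D1:**
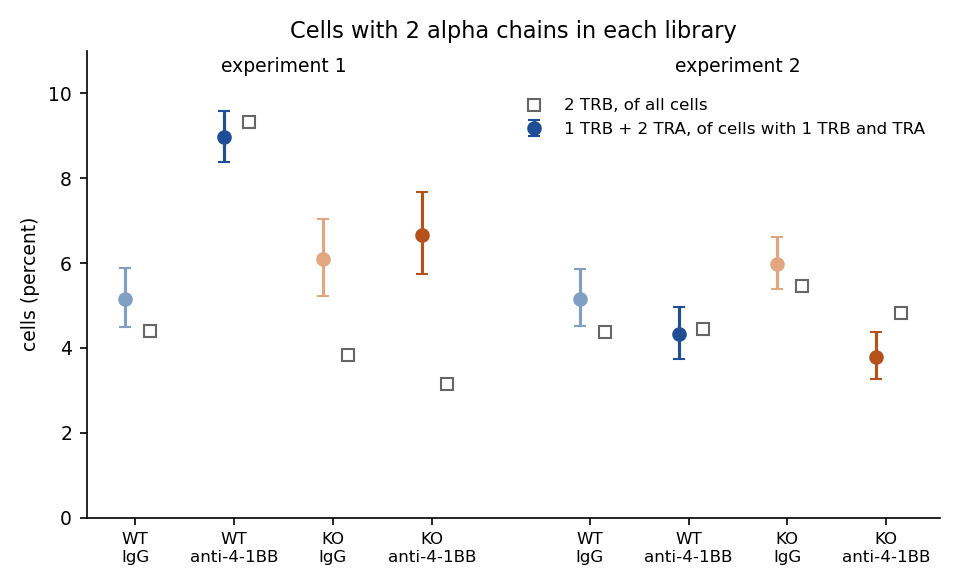
Percent of cells with 1 TRB and 2 different TRA chains among cells with 1 TRB and any TRA (filled circles, with 95% exact binomial intervals), and percent of all cells with 2 TRB chains (open squares), in each of the 8 libraries. The experiment 1 library of WT with anti-4-1BB has the highest value of both, 8.96% and 9.33%.

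The dual-alpha share did not separate the treatments or the genotypes. With anti-4-1BB it averaged 5.94% ± 2.37 (SD, n = 4) and with IgG 5.59% ± 0.507 (SD, n = 4), a difference of 0.344 percentage points (exact permutation test over 70 arrangements, two-sided p = 0.886). The IgG libraries lay between 5.15% and 6.09%, inside the 3.79% to 8.96% of the anti-4-1BB libraries. Anti-4-1BB minus IgG was 3.81 points in WT and 0.582 in KO in experiment 1, and -0.832 and -2.18 points in experiment 2. It thus had the opposite sign in the 2 experiments. Without the experiment 1 library of WT with anti-4-1BB the difference over all libraries was -0.665 points.

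KO averaged 5.63% ± 1.26 and WT 5.90% ± 2.08 (SD, n = 4 each), a difference of -0.270 points (exact permutation p = 0.914). KO minus WT was 0.932 and 0.818 points with IgG in experiments 1 and 2, and -2.30 and -0.534 points with anti-4-1BB. Without the experiment 1 library of WT with anti-4-1BB the KO minus WT difference was 0.751 points, and without the experiment 2 library of KO with anti-4-1BB it was 0.342 points. Experiment 2 averaged 4.81% ± 0.957 and experiment 1 6.72% ± 1.62 (SD, n = 4 each), a difference of -1.90 points (exact permutation p = 0.0857). The smallest p that this test of 4 against 4 libraries allows is 0.0286, and over the 8 exact permutation tests adjusted together (Benjamini-Hochberg) the lowest p was 0.125.

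The experiment 1 library of WT with anti-4-1BB also had the most cells (14657, against 4637 to 11308 in the others) and the highest share of cells with 2 TRB chains, 9.33% against 3.15% to 5.45%. Cells with 2 TRB chains can be doublets, in which 2 cells share a barcode, and a doublet that lost 1 of its TRB chains would be counted as dual-alpha. The part of doublets in the dual-alpha share was not tested. Of 71086 different barcodes 3198 occurred in 2 or more libraries, 215 of them of dual-alpha cells. Of the 2691 shared barcodes with 1 TRB in both libraries 0 had the same TRB.

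The share of dual-alpha cells was higher in deeper cells in most libraries. Pooled over libraries it was 4.70% in cells with 1 to 4 TRB UMIs, 4.78% with 5 to 9, 5.72% with 10 to 19, 7.12% with 20 to 39 and 10.4% with 40 to 170. The experiment 1 library of WT with anti-4-1BB supplied 1072 of the 2265 deepest cells, and without it the first and last of these values were 4.28% and 7.29%. With libraries weighted equally they were 4.69% ± 2.27 and 8.08% ± 3.07 (SD, n = 8). The highest bin was above the lowest in 6 of 8 libraries and below it in KO IgG (5.44% to 4.88%, the latter from 41 cells) and KO anti-4-1BB (8.71% to 7.91%) of experiment 1. Dual-alpha cells had a higher median number of TRB UMIs than single-alpha cells in 7 of 8 libraries and the same in the other. The medians of dual-alpha cells were 12, 21, 11 and 14 in experiment 1 and 15, 17, 14 and 17 in experiment 2, against 11, 18, 10 and 14, and 12, 16, 12 and 16, in single-alpha cells (WT first, and IgG first within a genotype). The difference was 0.15 ± 0.10 on the log2 scale (SD, n = 8, exact permutation test over all sign patterns, p = 0.0156, adjusted p = 0.125).

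**Figure D2:**
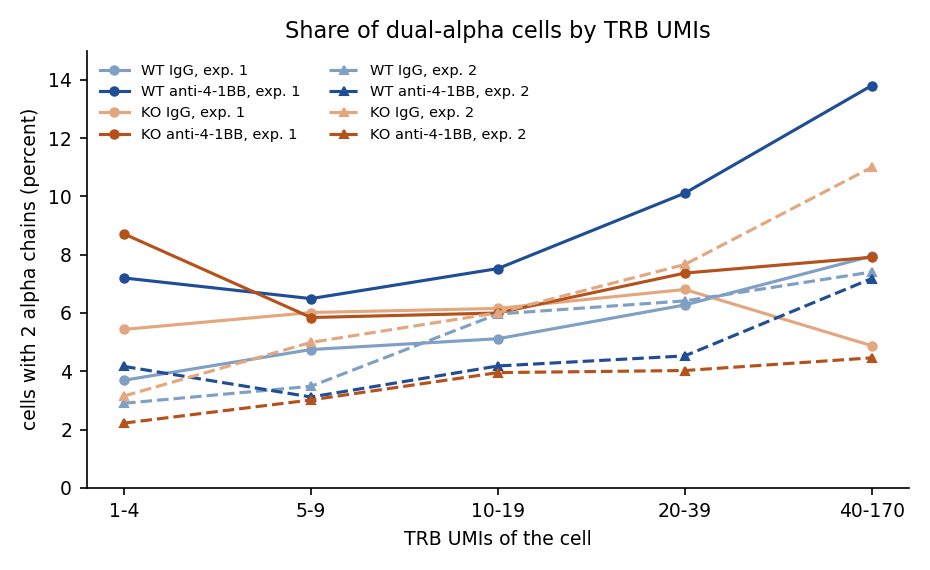
Percent of dual-alpha cells among cells with 1 TRB and any TRA (vertical axis) by the number of TRB UMIs of the cell (horizontal axis, 5 bins), 1 line per library (solid lines, experiment 1; broken lines, experiment 2). The highest bin lies above the lowest in 6 of 8 libraries, and the experiment 1 library of WT with anti-4-1BB reaches 13.8%.

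Anti-4-1BB libraries had deeper cells than their IgG libraries, so the shares were compared again with depth restricted. In cells with 10 to 19 TRB UMIs, a range that does not count alpha UMIs, anti-4-1BB minus IgG was -0.397 points over all libraries (exact permutation p = 0.714) and -0.157 points in KO mice of experiment 1, where it was 0.582 over all cells. With every cell thinned to 12 TCR UMIs (127 to 688 shallower cells per library left out) the shares were 5.56%, 8.19%, 7.05% and 6.59% in experiment 1 and 5.46%, 4.03%, 6.03% and 3.52% in experiment 2, in the same order. The difference was then -0.441 points (exact permutation p = 0.743). This cut counts the UMIs of both alphas and so left out fewer dual-alpha than single-alpha cells, 7.23% against 25.5% in KO IgG, experiment 1, and 0% against 2.69% in KO anti-4-1BB, experiment 2, which raises the share most in shallow libraries. The thinned shares are therefore given as values only. The direction of the small treatment difference changed within the band of TRB UMIs and without 1 library.

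Where both alpha chains of a cell were detected, the weaker usually held over 30% of the alpha UMIs. The chain with more UMIs (the stronger alpha) had a median of 10 UMIs, the other (the weaker alpha) 6, and the only alpha chain of single-alpha cells 8. The weaker alpha held a median of 39.1% of the alpha UMIs of its cell (quartiles 31.25% and 45%; by construction it cannot exceed 50%), which is a median ratio of 1.56 to 1. The 2 chains had equal UMIs in 210 cells (9.08%), and the weaker alpha was under 10% of alpha UMIs in 0.605% of cells. Both chains must be detected for a cell to be counted, and with a median of 16 alpha UMIs per cell a chain far below the other would mostly go unseen, so the scarcity of unbalanced pairs is in part set by detection. In 9.64% of cells the weaker alpha rested on fewer than 3 UMIs.

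**Figure D3:**
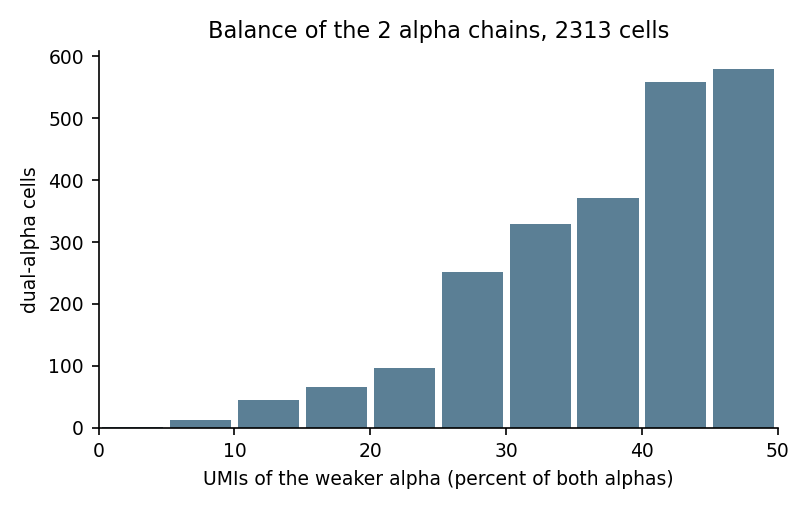
Number of dual-alpha cells (vertical axis) by the weaker alpha's percent of the alpha UMIs of the cell (horizontal axis, bins of 5 points), over all 8 libraries. The 580 cells between 45% and 50% form the highest bar, and 0.605% of cells lie under 10%.

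The balance of the 2 chains was close in all groups. The median share of the weaker alpha was 38.9%, 39.6%, 38.3% and 37.5% in experiment 1 and 40%, 38.5%, 40% and 38.3% in experiment 2 (WT first, and IgG first within a genotype). The difference between anti-4-1BB and IgG was -0.848 points (38.5% ± 0.869 against 39.3% ± 0.827, SD, n = 4 each, exact permutation p = 0.171). KO minus WT was -0.707 points (38.5% ± 1.05 against 39.2% ± 0.693, exact permutation p = 0.286). Each difference was close to the SDs of its groups, and the groups overlapped in both. KO was higher than WT in 0 of the 4 pairs of libraries with the same treatment and experiment, with 1 tie, and anti-4-1BB higher than IgG in 1 of 4.

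Which chain was stronger went with the TRAV segment it used. For the 42 TRAV segments found in at least 30 dual-alpha receptors with unequal UMIs, the share of those receptors in which the segment was the weaker chain ran from 20.7% (TRAV14-2) to 73.9% (TRAV12D-3). The mean UMI count of the same segments in single-alpha cells, which share no cell with these receptors, ran from 6.82 to 12.5. Across the 42 segments Spearman's rho between the 2 measures was -0.77, so segments with fewer UMIs in single-alpha cells were more often the weaker chain of a pair. The relation was -0.71 between single-alpha cells of experiment 1 and dual-alpha receptors of experiment 2, and -0.64 the other way round. For 40 TRAJ segments it was weaker, -0.45 in all libraries and -0.20 and -0.38 across experiments. Segments are not independent replicates, since the counts of 1 library must sum to its total and related TRAV segments share sequence, and these correlations are given as descriptions.

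**Figure D4:**
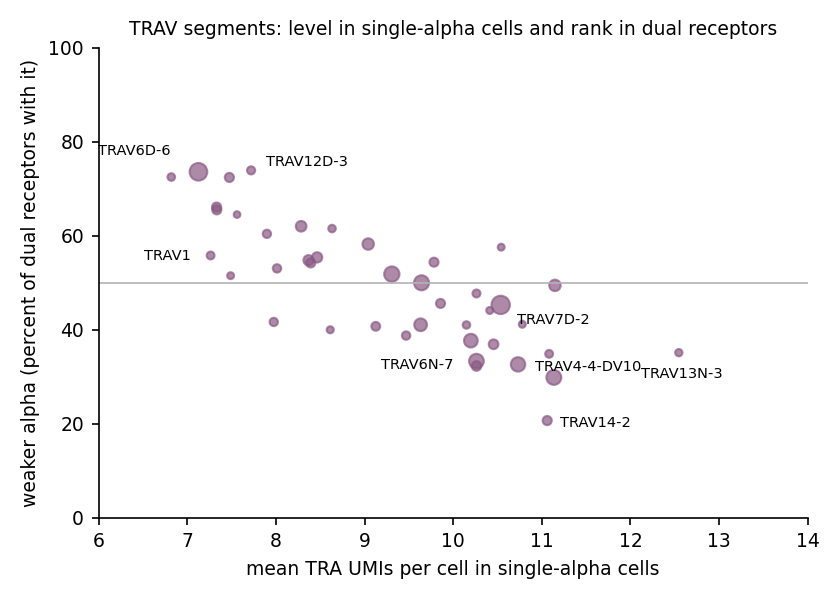
Each of 42 TRAV segments by its mean TRA UMIs per cell in single-alpha cells (horizontal axis) and the percent of dual-alpha receptors with that segment in which it is the weaker chain (vertical axis); the area of a point follows the number of receptors and the line marks 50%. Points fall from upper left to lower right, Spearman's rho -0.77.

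Counts of receptors per segment were compared between weaker and stronger alpha chains with edgeR's quasi-likelihood test, with the library as a block. Only 18 segments reached 10 receptors in at least 4 of the 16 columns of counts, and 3 of them (16.7%) passed an adjusted p of 0.05. These 3 met the filter mostly through columns of the kind of chain in which they were more frequent, so the filter was not blind to the comparison. Without the filter the edgeR adjusted p was 2.17e-08 for TRAV6D-6 and 0.00485 for both TRAV6N-7 and TRAV4-4-DV10. TRAV6D-6 was higher among weaker chains, 8.32% against 2.83% of receptors, a log2 difference of 1.46 ± 0.22 (SE, edgeR adjusted p = 6.07e-07) and higher in 8 of 8 libraries. Its share of weaker chains was 11.6%, 8.80%, 12.1% and 8.33% in experiment 1 and 6.01%, 8.22%, 7.48% and 4.03% in experiment 2. Among stronger chains it was 3.66%, 3.37%, 3.03% and 1.92%, and 4.92%, 1.37%, 2.38% and 2.01%. The values of the 2 groups of chains overlapped only through WT IgG, experiment 2 (4.92% of stronger chains), and KO anti-4-1BB, experiment 2 (4.03% of weaker chains). In single-alpha cells TRAV6D-6 had a median of 6 UMIs, against 8 for all alpha chains.

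TRAV6N-7 fell from 5.51% of stronger to 2.66% of weaker chains (log2 difference -0.99 ± 0.24, edgeR adjusted p = 0.0012, lower in 7 of 8 libraries). TRAV4-4-DV10, a segment that can also join the delta chain, fell from 5.34% to 2.83% (-1.03 ± 0.26, edgeR adjusted p = 0.0012, lower in 8 of 8 libraries). Both had a median of 9 UMIs in single-alpha cells. With DESeq2 both missed the threshold (adjusted p = 0.162 each). Of the named segments that did not pass, the largest differences were TRAV13N-2 (-0.71 ± 0.29, edgeR adjusted p = 0.0846) and TRAJ30 (-0.50 ± 0.25, adjusted p = 0.185). TRAJ33 (-0.47), TRAJ43 (0.32), TRAJ22 (0.20), TRAJ40 (0.14) and TRAV13-1 (0.11) had edgeR adjusted p from 0.229 to 0.765.

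The 2 alpha chains of a dual-alpha receptor used TRAJ segments of similar position. Over the 2088 dual-alpha receptors, each counted once per library, Spearman's rho between the TRAJ numbers of the stronger and the weaker alpha was 0.45. By library it was 0.48, 0.50, 0.50 and 0.54 in experiment 1 (191, 730, 145 and 169 receptors) and 0.37, 0.27, 0.42 and 0.34 in experiment 2 (208, 155, 327 and 163 receptors), with WT first and IgG first within a genotype. The mean was 0.43 ± 0.095 (SD, n = 8). It was above 0 in every library, and all 4 libraries of experiment 1 lay above all 4 of experiment 2.

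The same measure in cells with 2 TRB and 2 TRA chains, where the alpha chains can come from different cells, was 0.11 over 661 cells. Here cells were counted, not receptors, and 324 of them came from the experiment 1 library of WT with anti-4-1BB (rho 0.064). With libraries weighted equally it was 0.13 ± 0.19 (SD, n = 8). In that set the libraries ran from -0.08 (58 cells) to 0.48 (31 cells). Among dual-alpha receptors seen in at least 2 cells, which a chance doublet is less likely to give, rho was 0.65 (128 receptors). It was 0.48 in the 1704 receptors whose weaker alpha occurred with no other TRB in the library and 0.30 in the 384 whose weaker alpha did. With those 384 left out, the experiment 1 libraries ran from 0.47 to 0.57 and the experiment 2 libraries from 0.30 to 0.50, and they overlapped. The part of doublets and of stray RNA from other cells in the difference between experiments was not tested.

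**Figure D5:**
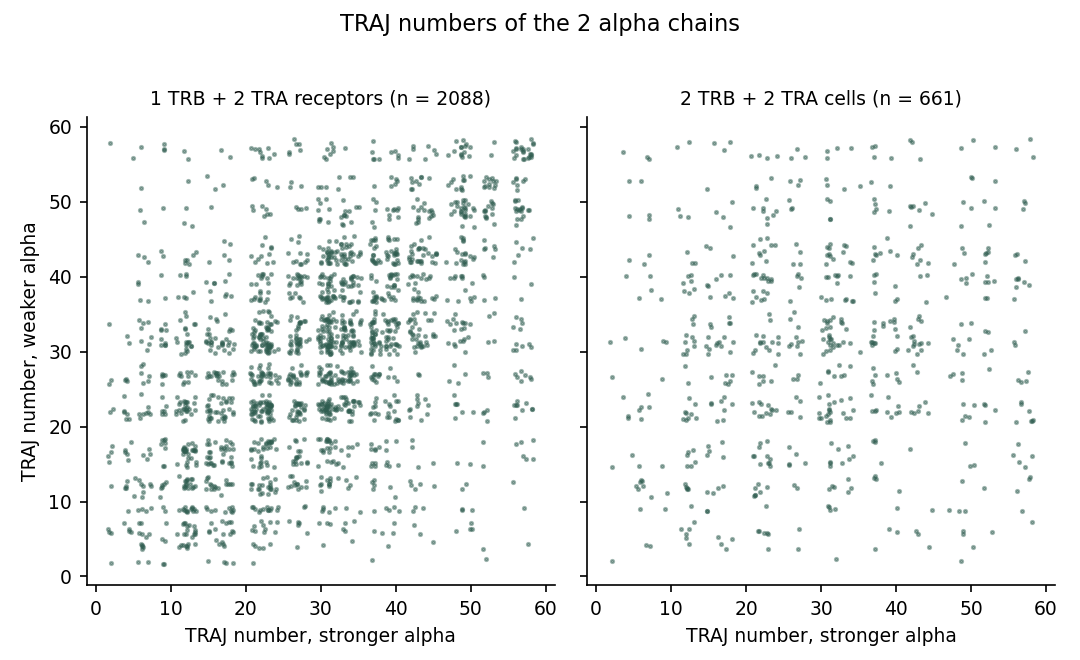
TRAJ number of the stronger alpha (horizontal axis) against that of the weaker alpha (vertical axis) for 2088 dual-alpha receptors (left) and 661 cells with 2 TRB and 2 TRA chains (right); points are spread at random within 0.4 of the number so that equal values can be seen. The left cloud follows the diagonal (Spearman's rho 0.45) and the right one less (0.11).

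In segment terms, pairs of an upstream TRAJ in 1 chain with a downstream TRAJ in the other were the least frequent. Where the stronger alpha used TRAJ 41 or higher (418 receptors), the weaker used TRAJ 41 or higher in 52.2% and TRAJ 20 or lower in 9.33%. Where the stronger used TRAJ 20 or lower (498 receptors), the weaker used TRAJ 20 or lower in 47.4% and TRAJ 41 or higher in 7.63%. Over all receptors the weaker alpha used TRAJ 20 or lower in 23.3% and TRAJ 41 or higher in 22.5%. In cells with 2 TRB and 2 TRA the 2 matching shares were 29.3% and 29.8%.

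The mean distance between the 2 TRAJ numbers was 10.8 ± 1.06 (SD, n = 8 libraries), against 15.2 ± 0.449 between the stronger alpha of a receptor and the weaker alphas of other receptors of its library. The distance was at most 5 in 35.2% ± 5.21 of receptors, against 22.3% ± 0.719 between receptors. The same TRAJ label was used by both chains in 5.58% ± 1.39 of receptors, against 3.21% ± 0.151. In all, 123 of 2088 receptors had the same TRAJ label in both chains, 78 the same TRAV label and 10 both.

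The TRAV segments of the 2 chains were less closely related. Spearman's rho between their start positions on chromosome 14 was 0.15 ± 0.051 (SD, n = 8), between 0.057 and 0.21 and above 0 in 8 of 8 libraries. With the number in the TRAV label in place of the position it was 0.02 ± 0.066 and above 0 in 5 of 8. Within 1 chain TRAV position and TRAJ number were related at 0.40 ± 0.079 for the stronger and 0.37 ± 0.060 for the weaker alpha, and at 0.40 ± 0.011 in single-alpha receptors. Across the alleles, the TRAV position of the stronger alpha and the TRAJ number of the weaker were related at 0.28 ± 0.059, and the reverse pair at 0.21 ± 0.084. In experiment 2 the relation between the 2 TRAJ numbers averaged 0.35, below the 0.39 to 0.42 of TRAV and TRAJ in single-alpha receptors in 3 of 4 libraries, and in experiment 1 it averaged 0.51, above the single-alpha value in 4 of 4.

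As a group, alpha chains of dual-alpha receptors did not differ from those of single-alpha receptors in TRAJ number beyond the spread between libraries. The mean number was 26.9, 29.6, 27.4 and 30.02 in experiment 1 and 30.6, 29.5, 31.2 and 31.3 in experiment 2, against 29.3, 29.96, 30.3 and 30.8, and 31.6, 30.8, 30.6 and 30.5, in single-alpha receptors. It was lower in dual-alpha receptors in 6 of 8 libraries, by -0.910 ± 1.31 (SD, n = 8, exact permutation test over all sign patterns, p = 0.102). Counted over cells the difference was -0.993 (exact permutation p = 0.0156, unadjusted). TRAJ 41 or higher made up 20.5% of dual against 23.7% of single alpha chains, TRAJ 21 to 40 55.7% against 53.3%, and TRAJ 20 or lower 23.7% against 23.0% (means of 8 libraries).

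A few segments were more frequent among dual than among single alpha chains. Of 109 segments tested with edgeR (66 TRAV and 43 TRAJ, the library as a block), 6 (5.50%) passed an adjusted p of 0.05, all 6 higher in dual-alpha receptors. At an unadjusted p under 0.05 there were 16, and the median log2 difference of all 109 was -0.07. The TRAJ call was TRAJ35 (chr14:54183774-54183838), a segment in the middle of the cluster. It made up 1.05%, 0.822%, 1.72% and 1.48% of dual alpha chains in experiment 1 and 1.68%, 1.29%, 2.14% and 0.920% in experiment 2. Among single alpha chains it was 0.338%, 0.362%, 0.369% and 0.404%, and 0.608%, 0.448%, 0.380% and 0.621%. Every dual value lay above every single value.

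The log2 difference of TRAJ35 was 1.62 ± 0.28 (SE, edgeR adjusted p = 1.12e-06, 8 of 8 libraries), from 54 dual and 124 single alpha chains. It was called in all 14 alternatives. The 53 dual-alpha receptors with TRAJ35 (1 had it in both chains) used 37 different TRAV labels with it, 17 different TRBV labels and 29 different TRAJ labels in the other chain. TRAJ35 was the stronger chain in 23 and the weaker in 27. Of all 180 distinct TRAJ35 CDR3s in the files, 173 ended in the same 24 bases, shown because the label rests on this stretch.
TRAJ35, 3′ end of the CDR3: ggctttgcaagtgcgctgacattt

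TRAV13N-3 (chr14:53337122-53337639) had the largest difference among the called TRAV segments. It made up 0.785%, 1.23%, 0.690% and 0.888% of dual alpha chains in experiment 1 and 0.721%, 0%, 1.53% and 0.307% in experiment 2. The 0 in WT anti-4-1BB, experiment 2, was of 310 chains, which allows a share of up to 0.968%. Among single alpha chains it was 0.338%, 0.188%, 0.138% and 0.0898%, and 0.231%, 0.374%, 0.112% and 0.296%. The dual share was higher in 7 of 8 libraries, with a log2 difference of 2.08 ± 0.36 (edgeR adjusted p = 1.12e-06), and it was called in all 14 alternatives. It rested on 40 dual and 62 single alpha chains.

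The other 4 called segments were TRAV1 (chr14:52427967-52428876), the farthest upstream TRAV, at 1.23% against 0.523% (log2 1.07 ± 0.31, edgeR adjusted p = 0.0157), TRAV7-5 at 4.47% against 3.12% (0.46 ± 0.13, adjusted p = 0.0142), TRAV6D-6 at 5.43% against 3.99% (0.40 ± 0.12, adjusted p = 0.0185) and TRAV6N-6 at 1.52% against 0.830% (0.78 ± 0.26, adjusted p = 0.0434). They were higher in 7, 8, 7 and 8 of 8 libraries. TRAV6D-6 and TRAV6N-6 were called in 7 and 4 of 14 alternatives, TRAV1 in 11 and TRAV7-5 in 12. Segments with D or N in their label belong to duplicated clusters with close copies, so a share can move between copies with how reads were assigned. The 5 segments named on the lower side (TRAV14N-3, TRAV7-6, TRAJ50, TRAV4N-3 and TRAJ52) had log2 differences from -0.66 to -0.45 and did not pass, with edgeR adjusted p from 0.088 to 0.282.

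The called segments were also counted in TRA contigs of other kinds of cells. Every contig was counted here, pooled over the libraries, so a clone counts once for each of its cells. The intervals hold counting error only and do not measure the spread between libraries. TRAJ35 made up 1.31% of TRA contigs in cells with 1 TRB and 2 TRA (95% exact interval 1.01% to 1.69%), 0.461% with 1 TRB and 1 TRA (0.394% to 0.537%), 0.597% in cells with 1 TRA and no TRB (0.379% to 0.894%) and 0.605% with 2 TRB and 2 TRA (0.262% to 1.19%). TRAV13N-3 made up 0.927% (0.671% to 1.25%), 0.215% (0.170% to 0.269%), 0.415% (0.238% to 0.673%) and 0.681% (0.312% to 1.29%) of the same 4 kinds. For both, cells with 2 TRB and 2 TRA lay between dual-alpha and single-alpha cells, with intervals that overlapped at least 1 of them. TRAV7-5 was more frequent in cells with 1 TRA and no TRB (5.50%, 4.80% to 6.27%) than in cells with 1 TRB and 2 TRA (4.14%, 3.58% to 4.75%). TRAV6N-6 was at 1.89% (1.49% to 2.38%) and 1.55% (1.22% to 1.95%) in the same 2 kinds, with overlapping intervals. In these pooled counts a high share of TRAV7-5 and TRAV6N-6 was thus not particular to dual-alpha cells. Differences between the kinds of cells were not tested. TRAV1 was at 0.571% and 1.08%, and TRAV6D-6 at 3.30% and 5.43%. In cells with 2 TRB and 2 TRA, TRAV1 was at 0.908% (0.47% to 1.58%), against 0.489% with 1 TRB and 1 TRA. TRAV7-5 was at 3.86%, TRAV6N-6 at 1.29% and TRAV6D-6 at 4.39% in cells with 2 TRB and 2 TRA. For each of these segments that value lay between dual-alpha and single-alpha cells, with an interval that overlapped both.

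Gene lists described as groups showed little difference. TRAV segments shared with the delta locus made up 11.8% ± 2.33 of dual and 11.5% ± 1.09 of single alpha chains (SD, n = 8), higher in 5 of 8 libraries. Members of duplicated TRAV families (D and N copies) made up 52.3% ± 4.15 and 51.0% ± 2.91, higher in 4 of 8. The invariant natural killer T alpha chain, TRAV11 or TRAV11D joined to TRAJ18, was in 12 of 2313 dual-alpha and 219 of 35788 single-alpha cells, and it was the stronger chain in 5 of the 12. The chain of mucosal-associated invariant T cells, TRAV1 joined to TRAJ33, was in 1 dual-alpha and 4 single-alpha cells. The mean CDR3 length was 39.97 ± 0.323 bases in stronger, 40.28 ± 0.385 in weaker and 40.27 ± 0.198 in single alpha chains, and the weaker was longer than the stronger in 7 of 8 libraries.

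Second alpha chains recurred in cells with the same beta chain. Of the 2313 dual-alpha cells, 817 had at least 1 other cell with the same TRB in the library that carried a TRA. The weaker alpha was found again in such a sister cell for 515 of them (63.0%) and the stronger for 599 (73.3%). By library the weaker alpha was found again in 66.7%, 54.4%, 70.5% and 73.5% in experiment 1 and in 71.3%, 67.9%, 59.4% and 69.2% in experiment 2, a mean of 66.6% ± 6.48. The lowest value was that of the experiment 1 library of WT with anti-4-1BB, and the mean for the stronger alpha was 74.0% ± 5.11. The whole pair was found in another cell for 353 (43.2%).

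Cells of a dual-alpha clone often showed only 1 of its alpha chains. The 128 dual-alpha receptors seen in at least 2 cells comprised 353 cells with both alphas, and their beta chains were further found with the stronger alpha alone in 339 cells, the weaker alone in 180, other alphas in 75 and no TRA in 123. Both were thus seen in 40.5% of the cells with either, from 25.4% in WT anti-4-1BB, experiment 2, to 80% in KO anti-4-1BB, experiment 1 (8 receptors). This share was also 69.5% in WT anti-4-1BB and 57.4% in KO IgG of experiment 1. The receptors were chosen for having at least 2 cells with both alphas, which raises this share. The 16 such cells of KO anti-4-1BB, experiment 1, are the fewest its 8 receptors allow. Over all dual-alpha cells, 832 of 4364 sister cells that shared at least 1 alpha showed both (19.1%, library mean 22.5% ± 8.73, SD, n = 8). A sister cell is counted there once for each dual-alpha cell. Among 327 pairs of cells with the same receptor and no ties, the same alpha led in 225 (68.8%). By library this ran from 40.5% in WT IgG, experiment 2, to 89.5% in KO anti-4-1BB, experiment 2. A receptor with many cells gives many pairs, so large receptors weigh most in these values. The 89.5% (57 pairs) rests mostly on the receptor seen whole in 11 cells, in which the same alpha led in 10.

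An alpha chain of a dual-alpha cell was found with another TRB in the same library about as often as other alpha chains. This was so for 18.4% of weaker, 18.9% of stronger and 20.1% of single alpha chains. It ran from 9.60% to 28.0% by library for the weaker alpha. An alpha that was also seen in another library made up 23.2% ± 3.62 of weaker, 23.8% ± 1.90 of stronger and 26.0% ± 1.72 of single alpha chains. None of the 2088 dual-alpha receptors, taken as 1 TRB with both TRA, occurred in more than 1 library. Of these receptors 93.9% were seen in 1 cell only, and a match needs the TRB and both TRA to recur. The matching count for single-alpha receptors is not given here. Whether dual-alpha receptors were shared between libraries less often than single-alpha receptors was therefore not tested.

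The share of dual-alpha cells showed no steady rise or fall with clone size. A clone is here all cells of a library with the same TRB among cells with 1 TRB and a TRA. The share of dual-alpha cells was 5.96% among cells alone in their clone, 6.74% in clones of 2, 6.13% in clones of 3 to 4, 6.51% in clones of 5 to 9 and 5.58% in clones of 10 to 78 cells, and the 95% intervals of neighbouring classes overlapped. As means of 8 libraries these were 5.51% ± 1.49, 6.38% ± 2.05, 5.80% ± 3.10, 6.63% ± 3.82 and 5.63% ± 3.96. The differences between classes were smaller than the spread between libraries. The intervals count each cell of a clone as independent, which cells of 1 clone are not, so they are too narrow for large clones. Differences between the classes were not tested.

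The share of cells in clones of 2 or more was 31.6%, 32.8%, 36.7% and 19.2% for dual-alpha cells in experiment 1 and 34.8%, 56.8%, 35.8% and 41.9% in experiment 2. For single-alpha cells it was 27.5%, 27.8%, 26.9% and 19.5%, and 31.5%, 53.1%, 35.9% and 44.1%. Dual-alpha cells were higher in 5 of 8 libraries, by 2.92 ± 3.77 points (SD, n = 8, exact permutation test over all sign patterns, p = 0.0625, adjusted p = 0.203). With alpha chains that also occurred with another TRB left out of both classes the difference was 2.33 points, and with only such dual-alpha cells left out it was -0.170. Between treatments the expanded share moved the same way in both classes. With anti-4-1BB there was a lower expanded share in KO of experiment 1 (36.7% to 19.2% in dual-alpha cells and 26.9% to 19.5% in single-alpha cells) and a higher one in WT of experiment 2 (34.8% to 56.8% and 31.5% to 53.1%).

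Among beta chain clones of at least 5 cells, the share with a dual-alpha pair seen in 2 or more cells was 11.8% (of 51 clones), 10.9% (101), 19.4% (36) and 0% (of 10) in experiment 1, and 12.7% (63), 10.2% (118), 11.3% (97) and 5.94% (101) in experiment 2. At least 1 dual-alpha cell was seen in 31.4%, 36.6%, 27.8% and 10%, and in 23.8%, 24.6%, 29.9% and 22.8%, of these clones. The experiment 1 library of KO with anti-4-1BB was lowest in both, from 10 clones. These shares mix clones of unequal size and were not tested between groups.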

How the data were processed

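A deposited file holds 1 library and gives, for each assembled contig, the count of reads and of UMIs, per the file headers. Named tools are bcl2fastq 2.20.0, Cell Ranger 7.1.0 and Seurat, and the build is GRCm38, per the submitters' processing notes; the V(D)J reference is not given in the sources used here. The 8 gene expression libraries were not analysed here. Tested on the files, 0 of 123611 contigs were marked as outside cells, low confidence, incomplete or not productive, 0 cells had more than 2 TRA or more than 2 TRB, and 0 cells had 2 TRA without a TRB. A chain removed before deposit therefore cannot be told apart from a chain never seen. Depth was 80551 to 445027 TCR UMIs and 8039901 to 15045635 reads per library, and 25.9% to 46.8% of the cells of a library had 1 TRB and no TRA.

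A chain was identified by its CDR3 nucleotides and J label. Segments were placed by RefSeq positions of GRCm38.p6, which matched all 132 TRA labels. Exact permutation tests (two-sided) were run on library values, over the 8 libraries between groups and over sign patterns within libraries, 8 tests adjusted together. Segment counts per receptor were tested with edgeR 4.0.16 in R 4.3.3, with the library as a block, the segment total as library size, Benjamini-Hochberg adjustment over both segment types, and a minimum of 10 receptors in 4 columns; the prior degrees of freedom were infinite, so each SE rests on a spread pooled over segments, and was taken as the log2 difference over the root of F. Balanced changes simulated from the real counts were also put through the fit. Their outcome is not given here, and no support for the calls is drawn from them. DESeq2 1.42.0 (with gene-wise dispersions in 1 of 4 fits) and the other alternatives are given at the end. Python 3.11.15, scipy 1.17.1, pandas 2.3.3, numpy 2.4.6 and matplotlib 3.10.9 were used for the rest. Doublets were not called. The replicate number is the experiment, which the labels mark as a batch and so pairs the libraries. The dual-alpha share was lower in experiment 2 in 3 of 4 groups, which does not test this pairing.

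The members, lists and tests were chosen with earlier results of these data known. Segments are named where they passed the test, and otherwise the 5 with the smallest p in each direction; receptors are named where they are the largest dual-alpha receptor of a library. The relation of TRAV to UMIs, the alternative with alpha chains left out of both classes, and the share by TRB UMIs without 1 library were chosen after seeing the data.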

Additional observations from a re-analysis of the deposited data

Results flagged for a closer look

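The difference in dual-alpha share between anti-4-1BB and IgG had opposite signs in the 2 experiments. Both genotypes were higher with anti-4-1BB in experiment 1 (3.81 points in WT, 0.582 in KO) and both were lower in experiment 2 (-0.832 and -2.18), so that the mean difference of experiment 2 minus that of experiment 1 was -3.70 points. This difference was not tested. In cells with 10 to 19 TRB UMIs it was -3.04 points, and the KO value of experiment 1 was then -0.157, so the signs no longer split by experiment.

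KO minus WT in the dual-alpha share was above 0 in both experiments with IgG (0.932 and 0.818 points) and below 0 in both with anti-4-1BB (-2.30 and -0.534). The difference between the treatments was -2.29 points, and it was not tested. In cells with 10 to 19 TRB UMIs it was -1.42 points. It was -3.23 in experiment 1, which holds the WT anti-4-1BB library with the most cells with 2 TRB chains, and -1.35 in experiment 2.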

How the results depend on the processing

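Of 155 alternative values of compared results, 139 were counted as unchanged. Where a result had a p, this means the same direction and the same side of the threshold. For the group comparisons the blocked tests cannot reach 0.05, and there this says nothing about stability. Correlations, the sister-cell share and counts of segment calls had no p, so for them it means only a value near the main one. Between dual and single chains, 4 to 7 calls in place of 6 were counted as unchanged. The treatment difference in dual-alpha share (0.344 points) was -0.441 when thinned to 12 UMIs (a cut that removes more single-alpha than dual-alpha cells), -0.397 in cells with 10 to 19 TRB UMIs, and between -0.665 and 1.06 with 1 library left out (lowest without the experiment 1 library of WT with anti-4-1BB). KO minus WT (-0.270) was between -0.795 and 0.751 with 1 library left out, and above 0 without the experiment 1 library of WT with anti-4-1BB (0.751) or the experiment 2 library of KO with anti-4-1BB (0.342). With the replicate block on the experiment these differences kept their values of 0.344 and -0.270 (exact permutation p = 0.833 and 0.889). The smallest p the blocked test allows is 0.0556, so it could not make a call. The excess of expanded dual-alpha cells (2.92 points, exact permutation p = 0.0625) was 3.49 with contigs under 3 UMIs left out (exact permutation p = 0.0313). It was 4.20 in cells with 10 to 19 TRB UMIs (exact permutation p = 0.0469), and both were past the unadjusted threshold. With clone size counted over all cells with 1 TRB, those without a TRA included, it was 1.45 (exact permutation p = 0.180). It was -0.170 without dual-alpha cells whose weaker alpha occurred with another TRB. That setting removes dual-alpha cells only, and removing such alphas from both classes gave 2.33. The TRAJ difference (-0.910) was -0.993 over cells and between -1.16 (without the experiment 2 library of KO with anti-4-1BB, exact permutation p = 0.0469) and -0.632 with 1 library left out. The correlation of TRAV position (0.15) was 0.0202 with the TRAV label number. Segment calls of dual against single chains were 6, with 3 without the replicate block and 2 to 7 with 1 library left out; without the experiment 1 library of KO with IgG they were 2. Calls of weaker against stronger chains were 3, with 1 by DESeq2, and 5 each without the filter and with cells counted. The cause of these changes was not tested. Of 277 values for named segments 250 kept their side of the threshold and 0 changed direction.
Of all cells 38.1% had 1 TRB and no TRA, from 25.9% to 46.8% by library, and the libraries gave 145 to 730 dual-alpha receptors.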
